A study of Mus musculus with 3 samples.

Results

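The Hoxb and Hoxc homeobox gene clusters of the mouse held 11 of the 1094 intervals in which the NUP98-HOXD13 fusion protein was recovered from chromatin. These were all intervals whose summit, the base of highest signal, lay between the outer ends of Hoxb13 and Hoxb1 (chr11:96194316-96368254) or of Hoxc13 and Hoxc4 (chr15:102921131-103036856) of the mm10 build. There were 6 in the list from cells given DMSO and 5 in the list from cells given VTP50469. Within these bounds every interval was taken by position, whatever its strength, width or presence in either list. The genes followed here were Hoxb6, Hoxb7, Hoxb8, Hoxb9, Hoxc4, Hoxc5 and Hoxc6. Members and gene lists were chosen with earlier results of these data known.

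All libraries came from 1 mouse leukaemia line with NUP98-HOXD13, in which a nucleoporin fragment is joined to the homeobox protein HOXD13, and the line was grown with IL-3, IL-6 and SCF. The fusion carried biotin in every sample and, for both lists, was pulled down on streptavidin beads (BioChIP-seq), so the recovered DNA marks where the fusion, or a complex that holds it, was crosslinked. The DMSO group received the solvent for 96 h and the VTP50469 group received 2 µM of this inhibitor of menin-MLL binding for 96 h, with 1 pull-down library in each. The third sample, an input from DMSO cells, had no list used here, and the sources used here name neither the mouse strain nor the number of clones behind the line. With 1 library per treatment no difference has a replicate check, and no test between treatments was made.

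Hox genes encode homeodomain transcription factors, and each cluster lists them in the order in which they act along the body axis, with the genes of highest number acting most posteriorly. In blood, genes of the middle and anterior groups are active in stem and progenitor cells and are shut down as the cells mature. MLL, a histone methyltransferase, and its partner menin keep these genes active, and NUP98 fusions are known to act on the same genes in leukaemia. HOXD13 belongs to the posterior class of HOX proteins, whose homeodomains recognise sites built on TTTAT or TTTAC, among them CCAATAAA and CTCGTAAA.

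Across the series the lists held 613 DMSO and 400 VTP50469 intervals on chromosomes 1 to 19, X and Y. Their median fold enrichment, the authors' ratio of the library to its background, was 7.64 and 7.33, and their median width 350 and 335 bp. The lists give no read totals. A relative depth rebuilt from them put the VTP50469 library 5.50% below the DMSO library, on the assumption that both lists used the same control.

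The strongest interval of either cluster lay over the promoter of Hoxb8, which encodes a HOX protein that holds myeloid progenitors in an immature state when overexpressed. RefSeq promoter sequences for GRCm38.p6, which shares its chromosome sequences with mm10, were given for 2 of the 7 genes, Hoxb8 and Hoxc4. The Hoxb8 window, from 250 bases before a listed start to 50 after it, lay wholly inside the fusion interval of both lists. Counted in each list by itself, 3 of the 32817 windows lay wholly inside an interval. The 250 bases before that start, chr11:96281655-96281904 on the plus strand, are shown because the DMSO summit fell on base 126 of them. Capitals mark TTTAT and TTTAC on either strand.
Hoxb8: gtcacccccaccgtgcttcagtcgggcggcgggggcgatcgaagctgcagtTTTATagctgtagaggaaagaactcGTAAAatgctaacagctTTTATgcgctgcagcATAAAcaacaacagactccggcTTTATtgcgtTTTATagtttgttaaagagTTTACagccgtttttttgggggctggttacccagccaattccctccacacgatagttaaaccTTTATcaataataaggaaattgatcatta

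This stretch held 6 matches to TTTAT and 2 to TTTAC, with both strands searched and overlapping matches counted. Among the first 250 bases of all 32817 windows the median was 1 match to either motif, and 0.204% of windows held 8 or more. Base composition bears on such counts: 55.6% of the Hoxb8 bases were A or T, against a median of 47.6%, and 23.2% of windows were as rich. The longer HOXD13 site CTCGTAAA was present at bases 74 to 81, and 0.110% of windows held it. CCAATAAA, the PBX-HOX letters TGATTTAT and TGATTGAT, and the MEIS letters TGACAG had no match in these bases, while 1.02%, 0.838%, 0.670% and 15.9% of windows held them. The general homeodomain core TAAT had 2 matches and stood in 54.9% of windows. A match is a string of letters and was not tested as a binding site.

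**Figure D1:**
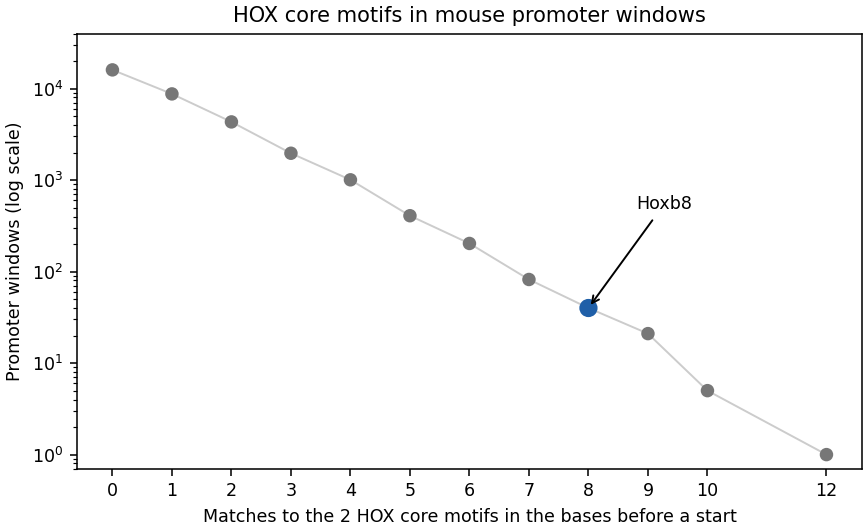
Matches to TTTAT or TTTAC on either strand in the 250 bases before each listed start (horizontal axis) against the number of promoter windows with that count (vertical axis, log scale), each point being a count of windows. The Hoxb8 window, in blue, is among the 40 windows with 8 matches, while 16013 windows had 0.

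At the Hoxc cluster the interval beside Hoxc6 also fell in a listed promoter window, that of the long non-coding RNA gene Gm29905, which runs away from Hoxc6. Both summits lay in this window, 21 bp before the Gm29905 start in the DMSO list and 11 bp before it in the VTP50469 list, and 38 and 48 bp outside the Hoxc6 span. The stretch shown covers chr15:102998118-102998225 and is read on the minus strand, beginning at the base next to the Hoxc6 span, with the same letters in capitals. The DMSO summit is its base 38 and the VTP50469 summit its base 48.
Gm29905: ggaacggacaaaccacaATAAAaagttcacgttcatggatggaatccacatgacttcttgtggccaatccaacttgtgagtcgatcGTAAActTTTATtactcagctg

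These 108 bases held 2 matches to TTTAT and 1 to TTTAC. Over the same part of all windows the median was 0, and 1.38% held 3 or more. The stretch was 58.3% A or T, and 12.7% of windows were as rich. CTCGTAAA, CCAATAAA, the PBX-HOX letters and TGACAG had no match in it, and TAAT had 1. A DMSO summit fell in 9 of the 32817 windows, those of 9 genes, and Hoxb8 and Gm29905 were among these. Of the 9 windows 1 held CTCGTAAA, that of Hoxb8. The Hoxc4 window did not overlap an interval, and the Hoxc4 summits lay 1464 and 1456 bp before the listed start in the DMSO and VTP50469 lists.

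The intervals took up a small central stretch of the Hoxb cluster and a longer, terminal stretch of the Hoxc cluster. In Hoxb, which spans 174 kb, both lists had their intervals within 11 kb, from 50.2% to 56.5% of the way along from the Hoxb13 end. In Hoxc, which spans 116 kb, they spread over 35.1 kb, from 66.5% to 96.8% of the way in the DMSO list and from 66.4% to 96.7% in the VTP50469 list. Hoxc4 closes the Hoxc cluster, so the name mid-cluster fits the Hoxb intervals and not the Hoxc intervals. The DMSO intervals covered 1090 bp of Hoxb and 1522 bp of Hoxc, and the VTP50469 intervals 1080 and 1024 bp.

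**Figure D2:**
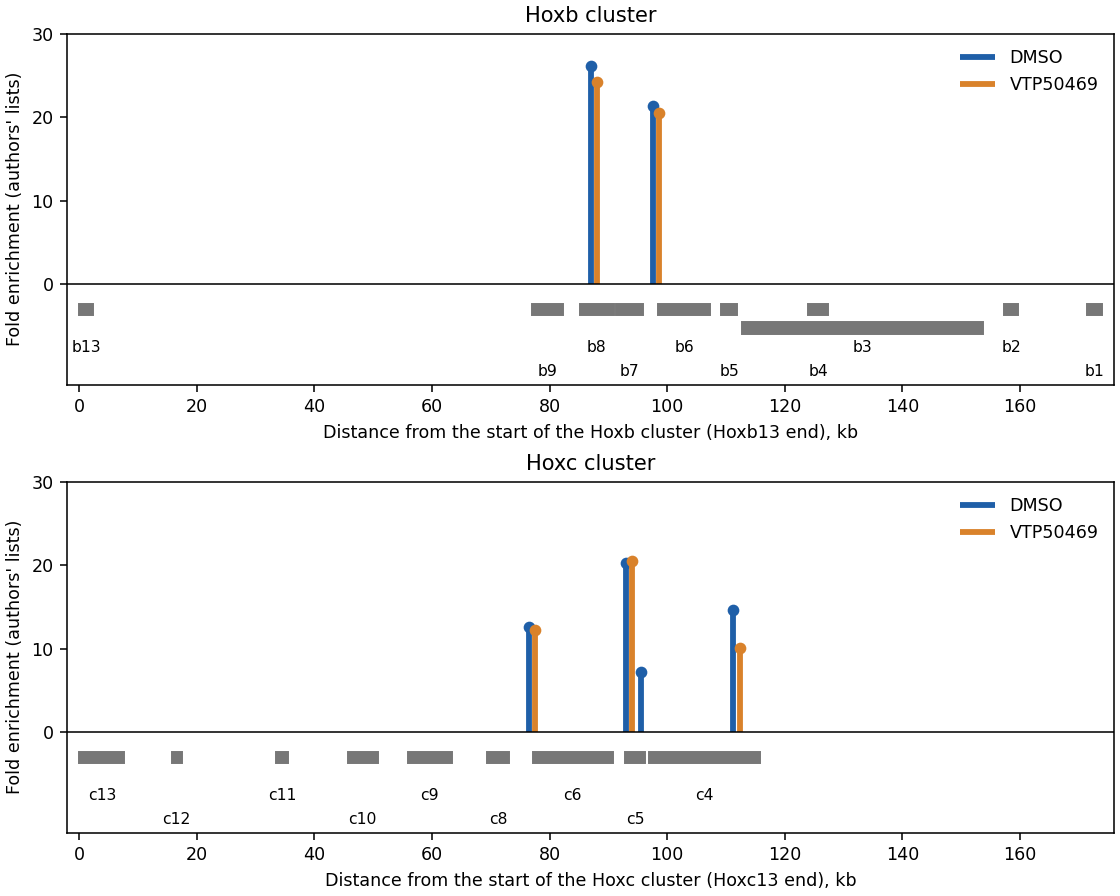
Fold enrichment in the authors' DMSO (blue) and VTP50469 (orange) lists at each interval of the Hoxb (upper) and Hoxc (lower) clusters. The horizontal axis is distance in kb from the outer end of Hoxb13 or Hoxc13, and gene spans are in grey. Each pair is drawn 1 kb apart for legibility. Intervals stand at Hoxb8 and Hoxb6 and from Hoxc6 to Hoxc4, and the remainder of both clusters is empty.

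Of the 10 Hoxb genes, 4 had a summit in the span or within 10 kb in each list, and of the 9 Hoxc genes, 4 did. Among all protein-coding genes 1.48% had a DMSO summit that near and 1.06% a VTP50469 summit, though neighbouring Hox genes share intervals. Because members and gene lists were chosen with earlier results of these data known, these counts are a description only. The genes with such a summit were Hoxb6, Hoxb7, Hoxb8 and Hoxb9, and Hoxc4, Hoxc5, Hoxc6 and Hoxc8. Summits fell inside the spans of Hoxb8, Hoxc5 and Hoxc4 in both lists. Hoxb7, a homeodomain factor expressed in the developing kidney, lies between the Hoxb8 and Hoxb6 intervals, and its nearest summit was 2220 bp away with DMSO and 2190 bp with VTP50469. Hoxb9, the next gene on the posterior side and a factor that patterns the ribs, was 5185 and 5322 bp from the Hoxb8 summit. Hoxc8 was 3913 and 3903 bp from the Hoxc6 summit.

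The other genes of both clusters lay farther away. On the anterior side of Hoxb the distance to the nearest DMSO summit was 11.1 kb for Hoxb5, 14.7 kb for Hoxb3, 25.9 kb for Hoxb4, a gene whose overexpression expands blood stem cells, 59.2 kb for Hoxb2 and 73.4 kb for Hoxb1. Hoxb13 stood 85.2 kb away on the posterior side. In Hoxc the posterior genes were 13.7 kb (Hoxc9), 26.3 kb (Hoxc10), 41.5 kb (Hoxc11), 59.6 kb (Hoxc12) and 69.4 kb (Hoxc13) from the nearest DMSO summit. The VTP50469 distances of these genes differed from the DMSO ones by the shift of the Hoxb6 or Hoxc6 summit, or of the Hoxb8 summit for Hoxb13. Outside the Hoxb bounds the next DMSO summits were 8722 and 5277 kb away.

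The Hoxb8 interval spanned chr11:96281566-96282271 in the DMSO list with a fold of 26.1. In the VTP50469 list it spanned chr11:96281556-96282256 with a fold of 24.2. It was the 8th of 613 DMSO intervals by fold and the 7th of 400 VTP50469 intervals. Its width of 706 and 701 bp was the largest of the clusters in both lists, and its summit lay 125 bp before the listed Hoxb8 start with DMSO and 12 bp after it with VTP50469. That shift of 137 bp was larger than at 90.5% of the intervals found in both lists, whose median shift was 26.0 bp. The span of Hoxb8 starts well before this start, so the interval lies inside the gene, and its exons are not given in the table used here.

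The second Hoxb interval stood between the spans of Hoxb7 and Hoxb6 and inside that of Hoxb5os, a long non-coding RNA gene. Hoxb6 encodes a HOX protein that expands myeloid progenitors when overexpressed. The interval spanned chr11:96292166-96292549 with a DMSO fold of 21.3 and chr11:96292175-96292553 with a VTP50469 fold of 20.5. Its summits lay 431 and 461 bp outside the Hoxb6 span and its widths were 384 and 379 bp. By fold it ranked 20th in the DMSO list and 15th in the VTP50469 list.

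In Hoxc the strongest interval lay inside Hoxc5, whose span also holds the microRNA gene Mir615. The DMSO interval, chr15:103014405-103014865, had a fold of 20.2 and a width of 461 bp. The VTP50469 interval, chr15:103014456-103014841, had a fold of 20.5 and a width of 386 bp. This placed it 23rd in the DMSO list and level with the Hoxb6 interval at 15th in the VTP50469 list. The 2 summits were 40 bp apart.

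The Hoxc6 interval spanned chr15:102998042-102998354 with a DMSO fold of 12.6 and chr15:102998026-102998343 with a VTP50469 fold of 12.3. It ranked 100th and 66th by fold, within the top 16.3% and 16.5% of the lists, and was 313 and 318 bp wide. Hoxc6 and Hoxc5 encode HOX proteins known for specifying motor neurons of the spinal cord. The Hoxc4 interval, inside the gene that closes the cluster, showed the largest gap between the lists among the 5 shared sites. It spanned chr15:103032644-103033120 with a DMSO fold of 14.7 and chr15:103032773-103033092 with a VTP50469 fold of 10.1. It ranked 61st by fold with DMSO and 102nd with VTP50469, and its width was 477 and 320 bp. Its summits were 8 bp apart, and the span of the long non-coding RNA gene Gm30528 also covers them.

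A second and weaker Hoxc5 interval, chr15:103017103-103017373, was in the DMSO list alone. Its fold was 7.19, its −log10 q, the authors' measure of confidence after correction for multiple testing, was 7.75, and it ranked 342nd of 613 by fold. The nearest VTP50469 summit was 2526 bp away, that of the main Hoxc5 interval. Of the 64 DMSO intervals within 1 unit of its −log10 q, 29 overlapped a VTP50469 interval, or 45.3%.

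An interval was called shared when at least 1 bp overlapped an interval of the other list. By that rule 5 of the 6 DMSO intervals were shared, where 49.8% of all DMSO intervals were, and 5 of the 5 VTP50469 intervals, where 77.8% of all were. The intervals of both Hoxb sites and of 3 Hoxc sites were thus in both lists, and the weak Hoxc5 interval was the exception. These shares rest on 6 and 5 intervals, and the median fold was 9.25 for shared DMSO intervals and 7.64 for the full list, so nothing particular to the clusters is drawn from them.

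The folds of the 5 shared pairs were close at 4 sites. The ratio of VTP50469 to DMSO fold was 0.926 at Hoxb8, 0.962 at Hoxb6, 0.977 at Hoxc6 and 1.01 at the main Hoxc5 interval. Over all 305 shared DMSO intervals the median ratio was 0.927 with an interquartile range of 0.773 to 1.06, and these 4 lay within that range. No direction is given for them, because with each fold divided by the median of the shared intervals of its list the ratios became 1.05, 1.09, 1.11 and 1.15. The ratio at Hoxc4 was 0.685, lower than at all but 44 of the 305, and 0.778 under that scaling. The median fold of shared intervals was 9.25 with DMSO and 8.13 with VTP50469, a log2 shift of -0.185.

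**Figure D3:**
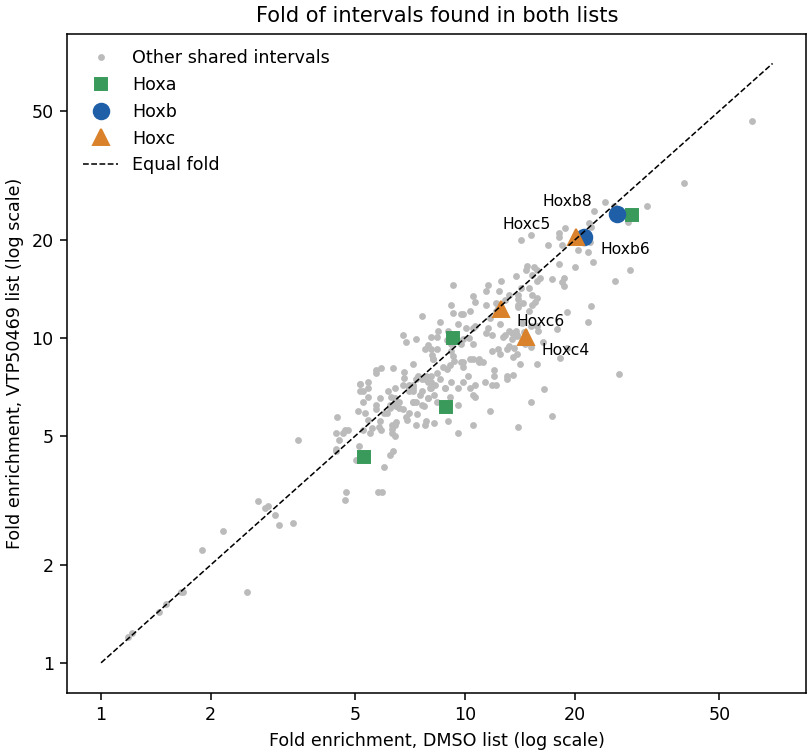
Fold enrichment of intervals found in both lists, DMSO on the horizontal and VTP50469 on the vertical axis (both log scale), each point being 1 DMSO interval with its strongest overlapping VTP50469 interval. Hoxb8, Hoxb6, Hoxc6 and Hoxc5 lie near the line of equal fold, with ratios of 0.926 to 1.01, and Hoxc4 lies below it at 0.685.

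The heights were also compared as numbers of DNA fragments over the summit, derived from the deposited fold and p-value of each interval and scaled for depth on the assumption that both lists used the same control. The Hoxb8 summit carried 171 fragments with DMSO and 148 with VTP50469, a scaled ratio of 0.916 (95% interval 0.730 to 1.15). The Hoxb6 summit carried 139 and 125, a ratio of 0.952 (0.741 to 1.22). At the Hoxc6 summit there were 81 and 74 fragments, and the ratio was 0.967 (0.696 to 1.34). The main Hoxc5 summit carried 132 and 125, with a ratio of 1.00 (0.778 to 1.29). All 4 intervals included 1, so a difference between the libraries at these sites was not detectable at this depth, and changes as large as the ends of each interval were not excluded.

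The Hoxc4 summit carried 95 fragments with DMSO and 60 with VTP50469, a ratio of 0.668 (0.476 to 0.933). It was the only one of the 5 whose interval lay below 1, and none lay above it. Over all 299 shared intervals with rebuilt counts, 18.7% had an interval below 1 and 1.34% above it, and the median ratio was 0.901. The exact Clopper-Pearson intervals cover counting error only and compare 2 libraries, not the treatments. They treat each count as taken at a fixed position. Each was read at the summit of its own list, so the true coverage may differ from 95%. Divided by that median, the ratio at Hoxc4 was 0.742 (0.528 to 1.04), so its interval then included 1, as did those of the other 4 sites. The weak Hoxc5 summit carried 45 DMSO fragments, which at the depth of the VTP50469 library corresponds to 42.5. Among the 244 VTP50469 intervals at the same background, 100 had that many fragments or fewer, and the lowest had 26.

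**Figure D4:**
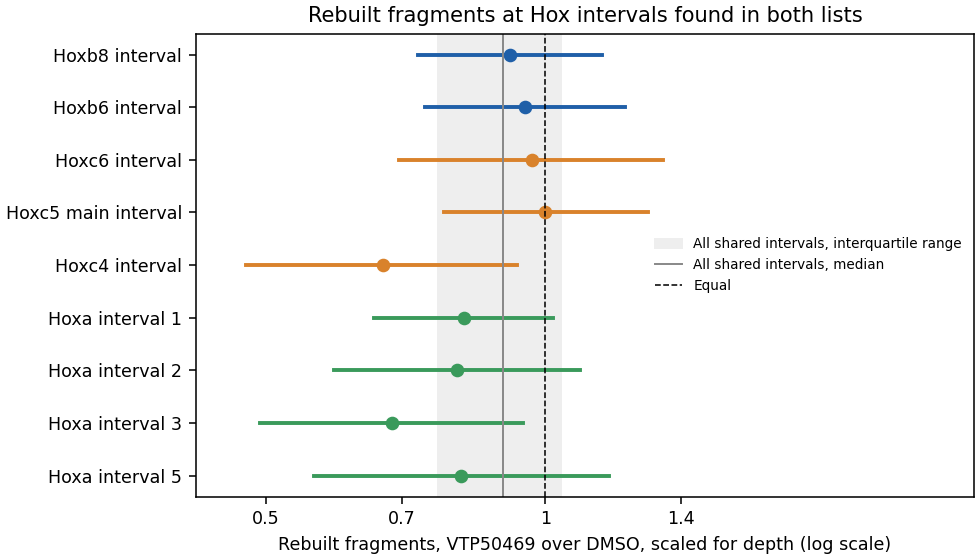
Ratio of rebuilt fragments, VTP50469 over DMSO and scaled for depth (log scale), at each shared Hoxb (blue), Hoxc (orange) and Hoxa (green) interval, with exact 95% intervals for counting error as bars. The grey band and line are the interquartile range (0.766 to 1.04) and median (0.901) of all shared intervals; the bars of Hoxc4 and of the third Hoxa interval end below 1, and would reach 1.04 and 1.05 if divided by that median.

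The Hoxa cluster, the most similar region, had 5 intervals in each list within 13.5 kb, from the gap between Hoxa6 and Hoxa7 to Hoxa9. Of its 5 DMSO intervals 4 were shared. The strongest, with a summit 386 bp outside the Hoxa3 span, had a fold of 28.8 with DMSO and 23.8 with VTP50469, next to 26.1 and 24.2 at Hoxb8. The scaled fragment ratios of the 4 shared Hoxa sites ran from 0.684 to 0.817, and those of the 5 Hoxb and Hoxc sites from 0.668 to 1.00. The lowest of the Hoxa ratios was at the third site, between Hoxa7 and Hoxa9, with an interval of 0.492 to 0.946 that became 0.546 to 1.05 when divided by the median of all shared intervals. By fragments the ranges of the clusters overlapped through Hoxc4 alone, as the other Hoxb and Hoxc ratios ran from 0.916 to 1.00. Their 95% intervals overlapped, such as 0.654 to 1.02 at the first Hoxa site and 0.730 to 1.15 at Hoxb8. By fold the Hoxa ratios ran from 0.693 to 1.08, the highest at the Hoxa7 site, and the Hoxb and Hoxc ratios from 0.685 to 1.01. The DMSO interval at the Hoxa7 site overlapped 2 VTP50469 intervals. Its ratios, 0.804 by fragments and 1.08 by fold, use the VTP50469 interval with the higher fold, whose summit lay 590 bp away. A difference between the clusters was not tested. In paralogue terms the sites lay at groups 6 to 9 in Hoxa, 6 to 8 in Hoxb and 4 to 6 in Hoxc. None of the 9 Hoxd genes had a summit within 50 kb in either list.

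The clusters also hold microRNA genes, some of which act on Hox messages. Mir615 lay nearest to an interval, 45 bp from the end of the main Hoxc5 interval in the DMSO list and 69 bp in the VTP50469 list. Mir196a-1 beside Hoxb9 was 16.3 kb from the nearest interval in both lists, Mir196a-2 beside Hoxc10 was 24.6 kb away in both, and Mir10a, beside Hoxb4, was 24.6 kb away in both. The mature RNAs are shown with the seed, bases 2 to 8, in capitals. The seeds of miR-615, miR-196a and miR-10a are all different. Both Mir196a genes give the same miR-196a-5p, known to direct cleavage of the Hoxb8 message.
miR-615-5p: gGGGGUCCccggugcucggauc
miR-615-3p: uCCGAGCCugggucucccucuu
miR-196a-5p: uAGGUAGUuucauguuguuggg
miR-10a-5p: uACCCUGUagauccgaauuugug

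Cofactors that bind DNA together with HOX proteins were examined by the same 10 kb rule, which 1.48% of all protein-coding genes met with DMSO and 1.06% with VTP50469. Of 9 HOX cofactor genes, 2 had a DMSO summit within 10 kb, Pbx3 with 7 summits and Meis1 with 1 at 4211 bp, and 1 had a VTP50469 summit, Pbx3 with 2. Of 10 genes listed for menin and MLL complexes, with Kat7 and Kat6a of other chromatin complexes among them, 0 had a summit within 10 kb in either list. Outside the Hox clusters 296 shared intervals were ranked by their likeness to the Hoxb8 interval in log2 fold over the 2 libraries. The nearest were 1 that lay 787289 bp from Tmprss15 (folds 25.6 and 25.4), 1 that lay 33485 bp from Hibadh (28 and 22.7) and 1 inside Stim1 (24.3 and 26.3). For the main Hoxc5 interval they lay 6417 bp from Gnptab (20.4 and 18.7), 34002 bp from Clvs1 (22.1 and 19.8) and 1090052 bp from Iftap (18.8 and 21.9).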

How the data were processed

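The authors deposited 1 narrowPeak list per pull-down library, so intervals were called per library. Per the submitters' processing notes, the tools were MACS2, bedtools, SAMtools 1.95, Picard 2.9.4, STAR 2.7.5a and bcl2fastq 2.20.0.422, with the mm10 build; the sources used here give no settings, threshold or control. The deposited fold enrichment is a ratio to background. The deposited −log10 p-value and −log10 q-value are the authors' own, and the deposited score, the whole part of 10 times −log10 q in all rows, was not used. These values describe intervals within their list.

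Intervals were assigned to gene spans of a RefSeq table (GRCm38.p6, 21887 protein-coding genes). Fragment counts were rebuilt for 609 DMSO and 395 VTP50469 intervals as the whole number k for which (k × scale + 1) / (background + 1) gave the fold and a Poisson tail gave the −log10 p within 0.001. Rebuilding was checked only on data simulated under this same model, which cannot show whether the deposited lists follow it. The value of 1 fragment was 0.347 for DMSO and 0.367 for VTP50469. If both lists used the same control, the depth ratio of 0.945 follows from these values. Analysis used Python 3.11.15 with scipy 1.17.1, pandas 2.3.3, numpy 2.4.6 and, for plots, matplotlib 3.10.9.

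Members, gene lists and motifs were chosen with earlier results of these data known. All 7 genes followed were named whatever their values, as were the other Hoxb and Hoxc genes; non-coding genes were named within 2 kb of a summit, cofactor and complex genes within 10 kb, Hoxa genes where nearest to an interval, and like intervals as the 3 nearest in log2 fold. Mir196a-1, Mir196a-2 and Mir10a fall outside this rule and were added after their distances were seen. Kat7 and Kat6a also fall outside it and are named only to describe their list. As no genome was used here, interval sequence was read only in parts of the Hoxb8 and Gm29905 promoter windows, the stretches shown. The Hoxb8 stretch does not hold the VTP50469 summit of that interval.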

Additional observations from a re-analysis of the deposited data

How the results depend on the processing

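The numbers of Hoxb and Hoxc intervals and of shared intervals changed by less than 1.5 times under stricter limits on −log10 q (5 and 10) and on fold (5), with bounds widened by 50 kb, under 3 other overlap rules and at equal list length. At −log10 q of at least 10 the DMSO list had 5 intervals, without the weak Hoxc5 one. The count of 8 Hoxb and Hoxc genes with a summit moved with the flank by construction, in both lists alike: 3 inside the span, 5 within 2 kb and 14 within 50 kb. The median fold ratio of the 5 shared sites was 0.962 and ran from 0.924 with −log10 p in place of fold to 1.09 scaled by the shared median, so its side of 1 depends on the scaling. The ratio at Hoxc4 ran from 0.607 to 0.778 by fold or −log10 p and from 0.668 to 0.742 by fragments. Its interval below 1 was lost when fragments were scaled by the median of shared intervals (0.528 to 1.04), where 33 of 299 intervals lay below 1, against 56 without that scaling, and 16 above, against 4. No paired analysis was possible because the DMSO and VTP50469 arms hold 1 library apiece, and no library could be left out. Depth is known only as a ratio that assumes the same control for both lists, and the weakest intervals are the least certain.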

Other observations

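The rebuilt local background equalled the background of the whole genome at 6 of 6 Hoxb and Hoxc intervals with DMSO and 5 of 5 with VTP50469. The 5 lie at sites also in the DMSO list, so they are not a second observation if both lists used the same control. In the Hoxa cluster it did so at 2 of 5 DMSO and 1 of 5 VTP50469 intervals, and over all rebuilt intervals at 381 of 609 and 244 of 395. At the DMSO intervals inside Hoxa7 and between Hoxa7 and Hoxa9 it was 3, and at the weaker of those inside Hoxa9 it was 4, against 1.31 for the genome.

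The Hoxb8 stretch and the Gm29905 stretch beside Hoxc6 both held the letters TCGTAAA, a shorter form of the HOXD13 site, at bases 75 to 81 and 85 to 91. The string was chosen after the stretches were seen, and it stood in 0.478% and 0.229% of promoter stretches of the same length and place. These are counts of letters in 2 windows, and binding at them was not tested.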
